A study of Mus musculus with 6 samples.

Results

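Selective autophagy receptors are the adaptor proteins that carry ubiquitin-tagged cargo to the growing autophagosome. The set described here holds the genes of 7 such receptors or scaffolds (Sqstm1, Nbr1, Optn, Tax1bp1, Calcoco1, Tollip and Wdfy3) together with Keap1 and Nfe2l2, the KEAP1-NRF2 pair. The 9 genes were taken by symbol from the 24421 gene rows of the expression table. The members, and the gene lists used below, were chosen with earlier results of these data known. All 9 passed the filter on low values and stood among the 11559 genes tested. RNA was sequenced from primary mouse kidney proximal tubular epithelial cells, in 3 libraries labelled Atg5KO and 3 labelled Atg5F/F. The series' design text calls the second kind the control. The labels give no Cre driver, strain, age, sex or number of animals for either group, which limits what Atg5KO can stand for as a model. Every library came from cells kept in 20 µM erastin2 for 24 h, so the comparison is of genotype under this agent and says nothing of cells without it. Erastin2 blocks the cystine importer whose light chain is encoded by Slc7a11, and is used to induce ferroptosis, an iron-dependent death by lipid peroxidation.

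Under erastin2, Sqstm1 mRNA was lower in Atg5KO than in Atg5F/F, and Calcoco1 and, by a smaller step, Optn were higher. Nfe2l2, Keap1, Nbr1 and Wdfy3 had overlapping groups and were not called. Among known NRF2 target genes 60.0% were lower in Atg5KO, beside 17.9% of all genes tested, and 14.3% were higher, beside 21.3%.

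In selective autophagy a receptor binds ubiquitin chains on its cargo through a ubiquitin-binding domain and docks on lipidated ATG8 proteins, such as LC3, through a short LC3-interacting region. ATG5 belongs to the complex that attaches the lipid to ATG8 proteins, and p62, the product of Sqstm1, is itself degraded with its cargo. p62 also binds KEAP1, the adaptor that presents the transcription factor NRF2 (encoded by Nfe2l2) to the CUL3 ubiquitin ligase. NRF2 that escapes KEAP1 enters the nucleus, pairs with a small MAF protein and binds antioxidant response elements in genes for glutathione synthesis, detoxification and iron storage. Sqstm1 is itself a known NRF2 target. The values below are mRNA levels and carry no information on protein amount or turnover.

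The libraries implied totals of 16922491 to 19724355 reads for Atg5KO and 15528454 to 30004933 for Atg5F/F, all under 1 batch label. Pearson's r of log2 values was 0.994 to 0.997 within groups and 0.978 to 0.984 between them, across genes. Atg5 itself had 13.3, 11.5 and 12.7 FPKM in the libraries labelled Atg5KO, against 8.76, 8.95 and 7.94 FPKM in Atg5F/F (log2 fold change 0.50, limma adjusted p = 5.5e-04). FPKM counts fragments per kilobase of gene, scaled to the size of the library. The table has 1 value a gene, in which the loss of an exon need not show, so the Atg5 level does not check the genotype, and the groups are named by their labels.

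The promoters of the members that carry the main contrasts are shown first: Sqstm1 is the member that was lower in Atg5KO, Calcoco1 the one most clearly higher, and Nfe2l2 encodes the factor itself. Each window runs from 250 bases before to 50 bases after the start site in RefSeq on GRCm38.p6, written 5′ to 3′ on the gene's strand, which is the minus strand for all 3. Capitals mark the core of the antioxidant response element, searched as TGACNNNGC on both strands. The windows are chr11:50210771-50211070 for Sqstm1, chr15:102722129-102722428 for Calcoco1 and chr2:75704614-75704913 for Nfe2l2.
Sqstm1: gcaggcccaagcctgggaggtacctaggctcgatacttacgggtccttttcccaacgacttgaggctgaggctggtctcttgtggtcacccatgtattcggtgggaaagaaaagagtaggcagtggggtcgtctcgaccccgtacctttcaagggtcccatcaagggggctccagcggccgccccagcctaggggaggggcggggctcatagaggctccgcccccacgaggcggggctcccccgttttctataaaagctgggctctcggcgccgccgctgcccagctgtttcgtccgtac
Calcoco1: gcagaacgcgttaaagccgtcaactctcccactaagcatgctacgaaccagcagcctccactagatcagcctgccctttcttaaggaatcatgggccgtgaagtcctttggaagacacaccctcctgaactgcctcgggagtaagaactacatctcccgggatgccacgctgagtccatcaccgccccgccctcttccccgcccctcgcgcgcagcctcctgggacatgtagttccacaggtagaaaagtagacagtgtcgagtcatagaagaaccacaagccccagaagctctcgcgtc
Nfe2l2: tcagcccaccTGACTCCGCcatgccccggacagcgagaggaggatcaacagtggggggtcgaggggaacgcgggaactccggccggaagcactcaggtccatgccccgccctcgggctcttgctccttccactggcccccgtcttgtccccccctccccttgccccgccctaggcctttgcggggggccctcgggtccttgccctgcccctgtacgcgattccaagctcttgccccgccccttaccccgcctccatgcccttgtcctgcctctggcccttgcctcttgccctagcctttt
Nfe2l2 held a match whose first base is at position -240 from its start site, and the windows of Sqstm1 and Calcoco1 held none. Of the 8 members with a window in RefSeq (Wdfy3 had none), Nfe2l2 and Tax1bp1 had a match (for Tax1bp1 at position -205 of its second window). The same letters occurred in 12.4% of all 32851 windows, or 14.0% of 27025 genes. CACGTG, the E-box within the element that the lysosomal regulator TFEB binds, was in none of the 8 members and in 7.15% of windows (8.09% of genes). The GC content of the member windows was 52.7% to 68.7%, against a median of 52.7% for all windows. A match is a run of letters and no measured binding site, and a window without one says nothing of elements elsewhere.

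Sqstm1, which encodes p62, had 1013, 1005 and 1037 FPKM in Atg5KO, against 1290, 1410 and 1394 FPKM in Atg5F/F. All 3 Atg5KO libraries lay below all 3 Atg5F/F libraries, and the gene ranked 14 of all genes by mean level. Mean levels were 1018 ± 17.1 FPKM in Atg5KO and 1365 ± 65.3 FPKM in Atg5F/F (SD, n = 3 each), so that the mean fell by 25.4% in Atg5KO. In bulk libraries, fewer cells of a type and less RNA per cell cannot be told apart. The log2 fold change was -0.42 (SE 0.061, 95% interval -0.56 to -0.28, limma adjusted p = 9.0e-04). Quantile normalization, which forces all libraries to the same distribution of values, gave -0.22 (limma adjusted p = 0.016). The values rest on 34511 to 40543 reads in Atg5KO and 44459 to 78563 in Atg5F/F, so counting error is small beside the spread of the libraries. The gene lies on GRCm38 at chr11:50199366-50210827 on the minus strand (GENCODE vM21). It shares 580 exonic bases with the opposite-strand gene Mrnip, which did not exceed 6.33 FPKM in any library, and the strand setting of the counting is not given in the sources used here.

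Nbr1 encodes a receptor that, like p62, has a PB1 domain and works with it in gathering ubiquitinated protein. It had 60.2, 57.5 and 63.7 FPKM in Atg5KO, against 60.5, 62.9 and 61.1 FPKM in Atg5F/F. The groups overlapped, and the log2 fold change of -0.025 (95% interval -0.13 to 0.075, limma adjusted p = 0.68) did not pass the test. The ratio of Sqstm1 to Nbr1 FPKM was 16.9 ± 0.60 in Atg5KO and 22.2 ± 0.77 in Atg5F/F (SD, n = 3 each). Nbr1 lies at chr11:101552149-101581951 on the plus strand.

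**Figure D1:**
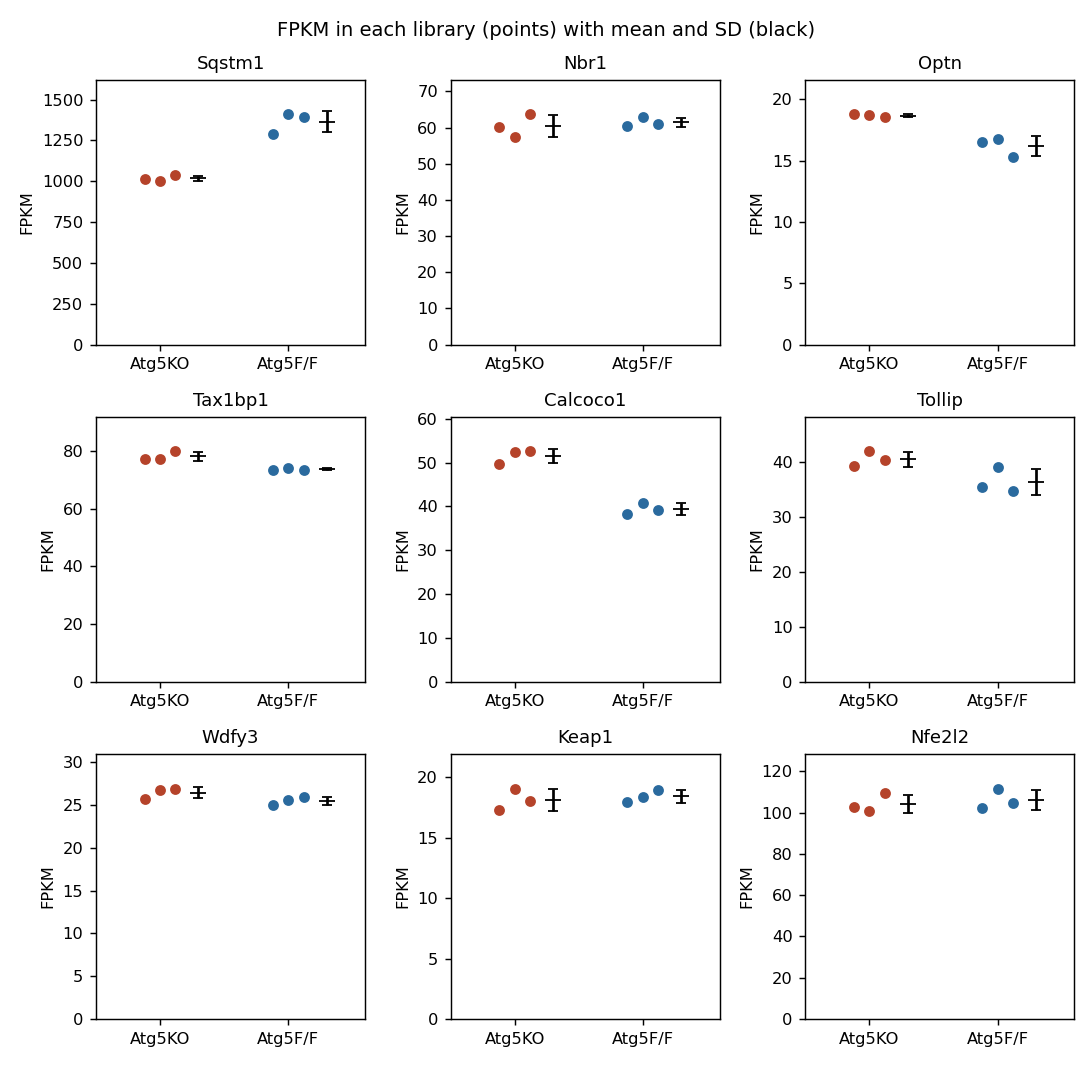
FPKM of the 9 members in each of the 6 libraries, 1 panel a gene, with Atg5KO points left of Atg5F/F points and the mean and SD in black (n = 3 each); each axis starts at 0. Sqstm1 is lower in all Atg5KO libraries (1005 to 1037 FPKM in Atg5KO against 1290 to 1410 FPKM in Atg5F/F), Calcoco1 is higher (49.7 to 52.5 FPKM in Atg5KO against 38.3 to 40.9 FPKM in Atg5F/F), and Nbr1, Wdfy3, Keap1 and Nfe2l2 overlap.

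Calcoco1, Tax1bp1 and Optn encode further receptors of the set. CALCOCO1 is known as a receptor for the endoplasmic reticulum and the Golgi, TAX1BP1 acts on protein aggregates and on ferritin through NCOA4, and optineurin acts on bacteria and damaged mitochondria. Calcoco1 had 49.7, 52.4 and 52.5 FPKM in Atg5KO, against 38.3, 40.9 and 39.1 FPKM in Atg5F/F. The groups were apart, and the means of 51.5 ± 1.58 FPKM in Atg5KO and 39.4 ± 1.31 FPKM in Atg5F/F (SD, n = 3 each) differed by 30.8%. The log2 fold change was 0.38 (SE 0.041, 95% interval 0.29 to 0.47, limma adjusted p = 1.8e-04). Optn had 18.8, 18.7 and 18.5 FPKM in Atg5KO, against 16.5, 16.7 and 15.3 FPKM in Atg5F/F. It rose by a smaller step, with every Atg5KO library above every Atg5F/F library (log2 fold change 0.20, SE 0.046, 95% interval 0.093 to 0.30, limma adjusted p = 0.0093). Tax1bp1 had 77.3, 77.4 and 79.9 FPKM in Atg5KO, against 73.6, 74.2 and 73.5 FPKM in Atg5F/F. Its groups did not overlap either, yet the log2 fold change of 0.084 (95% interval 0.007 to 0.16) missed the threshold (limma adjusted p = 0.079), and it was called only under quantile normalization (0.14, limma adjusted p = 0.019). Calcoco1 lies at chr15:102706777-102722178 (minus strand), Optn at chr2:5020642-5064051 (minus) and Tax1bp1 at chr6:52713729-52766780 (plus).

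Tollip and Wdfy3 encode a ubiquitin-binding endosomal adaptor that also damps interleukin-1 receptor signalling, and a large BEACH-domain scaffold of aggregate clearance, also called ALFY. Tollip had 39.3, 42.0 and 40.4 FPKM in Atg5KO, against 35.6, 39.1 and 34.7 FPKM in Atg5F/F. The groups came close, at 39.33 FPKM for the lowest Atg5KO library and 39.14 FPKM for the highest Atg5F/F library. The log2 fold change was 0.15 (SE 0.051, 95% interval 0.035 to 0.27, limma adjusted p = 0.044). This call was fragile: it was kept in 7 of 16 other settings and lost on leaving out Atg5F/F library 1 (0.13), Atg5F/F library 3 (0.12) or any single Atg5KO library (0.17, 0.13 and 0.15), with limma adjusted p between 0.059 and 0.16. Wdfy3 had 25.7, 26.8 and 26.9 FPKM in Atg5KO, against 24.9, 25.6 and 25.9 FPKM in Atg5F/F. The groups overlapped, and its log2 fold change of 0.052 (95% interval -0.036 to 0.14, limma adjusted p = 0.32) did not pass the test. Tollip lies at chr7:141874813-141918507 and Wdfy3 at chr5:101832956-102069921, both on the minus strand.

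Keap1 had 17.3, 19.1 and 18.1 FPKM in Atg5KO, against 17.9, 18.4 and 19.0 FPKM in Atg5F/F. The ranges overlapped almost fully (log2 fold change -0.023, 95% interval -0.13 to 0.086, limma adjusted p = 0.73). Nfe2l2 had 102.8, 100.9 and 109.3 FPKM in Atg5KO, against 102.4, 111.7 and 104.7 FPKM in Atg5F/F. It overlapped as well (-0.026, 95% interval -0.13 to 0.081, limma adjusted p = 0.69). The ratio of Nfe2l2 to Keap1 FPKM was 5.76 ± 0.42 in Atg5KO and 5.77 ± 0.29 in Atg5F/F (SD, n = 3 each), while that of Sqstm1 to Keap1 was 56.3 ± 3.17 in Atg5KO and 74.0 ± 2.49 in Atg5F/F. Keap1 lies at chr9:21229730-21239361 and Nfe2l2 at chr2:75675513-75704641, both on the minus strand. Keap1 shares 510 exonic bases with the antisense gene Gm16754, Wdfy3 392 with Gm20548 and 162 with Gm42934, Tax1bp1 160 with Gm43966 and Optn 73 with 4930551O13Rik, and reads of these pairs cannot be told apart if strand was not used in counting.

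**Figure D2:**
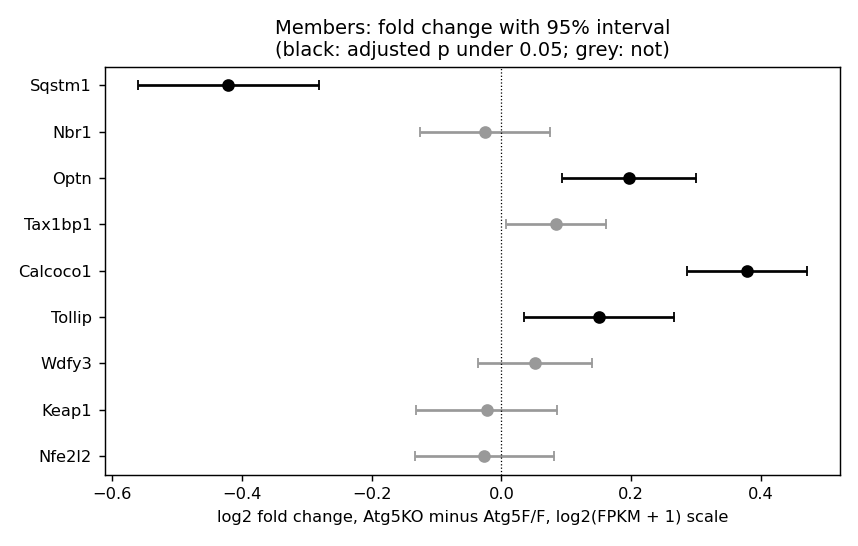
Log2 fold change of Atg5KO minus Atg5F/F on the log2(FPKM + 1) scale with its 95% interval for the 9 members (n = 3 libraries each); black points passed adjusted p under 0.05 over all genes tested and grey points did not. Sqstm1 stands alone to the left at -0.42, and Calcoco1 (0.38), Optn (0.20) and Tollip (0.15) lie to the right.

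Of the 9 members, 3 were higher in Atg5KO and 1 lower, and 5 of 9 had groups that did not overlap. Over all 11559 genes tested, 39.2% were called in either direction, 21.3% higher and 17.9% lower, and 51.9% did not overlap, so the shares among the members lie near the background. The median log2 fold change was 0.05 for the members and 0.02 for all genes tested, and that of the members was -0.03 with the length trend removed. By size, 9.94% of genes tested moved at least as far as Sqstm1 and 12.1% at least as far as Calcoco1. An exact permutation test of 3 libraries against 3 cannot go below p = 0.1, which each of the 5 members whose groups were apart reached. The labels do not say whether libraries of a group came from separate animals or cultures, so the p-values measure the spread between these libraries. In the authors' deposited table the same 4 members had an FDR under 0.05. So did 22.0% of all 24421 rows, a wider set that includes genes too low to be tested here. The authors' deposited table gives Sqstm1 a log2 fold change of -0.45 (FDR 2.33e-27), Calcoco1 0.36 (FDR 1.95e-12), Optn 0.18 (FDR 0.027) and Tollip 0.13 (FDR 0.035).

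The order of levels was nearly the same in both groups. Sqstm1 came first, then Nfe2l2, Tax1bp1, Nbr1, Calcoco1, Tollip and Wdfy3. The ranges of neighbours in that order were apart, except for Calcoco1 and Tollip in Atg5F/F. At the bottom Optn stood with Keap1 in Atg5KO, with overlapping ranges, and below Keap1 in Atg5F/F, with ranges apart. Sqstm1 made up 78.9%, 78.5% and 78.6% of the summed FPKM of the 7 receptors in Atg5KO, against 83.8%, 84.5% and 84.8% in Atg5F/F. The sum of all 7 was 1294 ± 22.0 FPKM in Atg5KO and 1617 ± 69.0 FPKM in Atg5F/F, and that of the 6 without Sqstm1 was 275.9 ± 5.59 FPKM in Atg5KO and 252.8 ± 5.72 FPKM in Atg5F/F (SD, n = 3 each). Sqstm1 was lower and the sum of the rest higher in Atg5KO, with no overlap of the groups in either. The ratio of Sqstm1 to Calcoco1 was 19.8 ± 0.59 in Atg5KO and 34.6 ± 1.00 in Atg5F/F.

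**Figure D3:**
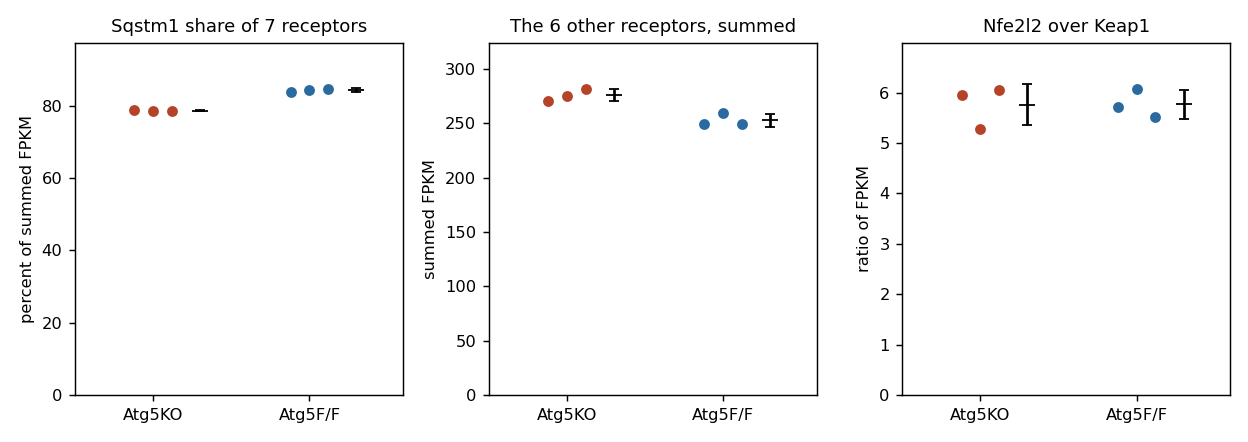
Sqstm1 as percent of the summed FPKM of 7 receptors (left), the summed FPKM of the other 6 (middle) and Nfe2l2 FPKM over Keap1 FPKM (right) in each library, Atg5KO left of Atg5F/F, with mean and SD in black (n = 3 each). The Sqstm1 share is 78.5% to 78.9% in Atg5KO against 83.8% to 84.8% in Atg5F/F, whereas the Nfe2l2 to Keap1 ratios overlap.

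Ligases and regulators that act on NRF2 or KEAP1 were read from a list of 20 genes, of which 19 were tested: 8 rose in Atg5KO, 1 fell and 10 did not pass (median log2 fold change 0.11, or 0.07 with the trend of values with gene length removed). As shares, 42.1% were higher and 5.26% lower, beside 21.3% and 17.9% of all genes tested. In either direction 47.4% were called, beside 39.2% of all genes tested. The largest steps were those of Sesn1 (0.50), a sestrin that aids p62-dependent removal of KEAP1, and of Trim21 (0.44), a ligase that modifies p62. Sesn1 had a mean of 5.65 ± 0.15 FPKM in Atg5KO and 3.71 ± 0.09 FPKM in Atg5F/F, and Trim21 4.44 ± 0.14 FPKM in Atg5KO and 3.03 ± 0.36 FPKM in Atg5F/F (SD, n = 3 each). Syvn1, which encodes the ligase HRD1 that can degrade NRF2, was lower (-0.23), and Fbxw11, a β-TrCP ligase adaptor, was higher (0.20). The KEAP1 ligase partners Cul3 (0.03) and Rbx1 (0.03) were not called. Among genes of the second route of NRF2 turnover, through GSK3 and β-TrCP, Skp1a (0.16) and Gsk3b (0.16) were higher and Gsk3a (0.06) was not called; these and the 2 preceding genes were chosen after their values were seen. Without Atg5F/F replicate 3, the list held 4 genes called higher, and neither Skp1a (0.16, limma adjusted p = 0.056) nor Gsk3b (0.16, limma adjusted p = 0.054) passed. Over 16 other settings the list held 4 to 10 genes called higher and 1 to 2 called lower.

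NRF2 binds DNA only with a small MAF partner, and BACH proteins compete with it for the same elements. Of 8 genes for MAF partners, BACH repressors and relatives of NRF2, 6 were tested, 4 were higher in Atg5KO and none was lower (median 0.20), or 66.7% called, beside 39.2% of all genes tested, of which 21.3% were higher. Maff had a mean of 42.2 ± 1.56 FPKM in Atg5KO and 31.7 ± 0.77 FPKM in Atg5F/F (SD, n = 3 each; log2 fold change 0.40, limma adjusted p = 1.3e-04). Mafk (0.17) and Bach1 (0.23), the repressor best known at Hmox1, rose by less. Mafg, a further small MAF gene chosen after its value was seen, was not called (-0.06, limma adjusted p = 0.20). Bach2 (0.26) had a mean of 1.52 FPKM in Atg5KO and 1.10 FPKM in Atg5F/F, and its call was lost without any one of Atg5F/F replicates 1 and 3 or the 3 Atg5KO replicates (0.25 to 0.28, limma adjusted p 0.056 to 0.086).

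Known NRF2 target genes were lower in Atg5KO in the main. All 35 genes of the list were tested: 21 fell, 5 rose and 9 did not pass (median log2 fold change -0.30), against 0.02 over all genes tested. As shares, 60.0% were lower and 14.3% higher, beside 17.9% and 21.3% of all genes tested. The median of the list ran from -0.35 to -0.20, the lower calls from 18 to 22 and the higher calls from 4 to 5 over 16 other settings. The steepest falls were in glutathione transferases and an export pump. Gsta2 had 36.6, 38.6 and 38.4 FPKM in Atg5KO, against 88.7, 99.6 and 104.2 FPKM in Atg5F/F (-1.34, limma adjusted p = 2.1e-06). Gsta1 (-1.24) is a near-identical copy of Gsta2, so the split of reads between them is uncertain. Gsta4, which acts on the lipid peroxidation product 4-hydroxynonenal, had 101.6, 102.3 and 101.9 FPKM in Atg5KO, against 212.7, 220.6 and 215.2 FPKM in Atg5F/F (-1.08, limma adjusted p = 1.4e-06). Abcc2, the export pump MRP2, had 1.84, 2.13 and 2.30 FPKM in Atg5KO, against 4.90, 6.37 and 5.83 FPKM in Atg5F/F (-1.11, limma adjusted p = 5.6e-05). In each of these 4 genes the Atg5KO libraries lay far below the Atg5F/F libraries, with no overlap.

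Other falls touched heme and thiol enzymes; these and the genes in the next sentences were chosen after their values were seen. Hmox1, heme oxygenase, had 259.4, 241.3 and 246.5 FPKM in Atg5KO, against 399.8, 401.4 and 430.1 FPKM in Atg5F/F (-0.72, limma adjusted p = 1.7e-05). Srxn1, sulfiredoxin, had 119.1, 114.3 and 118.6 FPKM in Atg5KO, against 174.8, 191.5 and 188.4 FPKM in Atg5F/F (-0.65, limma adjusted p = 1.7e-05). Gstp1 fell by 0.66, and the ferritin chains Fth1 and Ftl1 by 0.39 and 0.37 on the log2 scale, with the reserve that both ferritin genes have many processed copies that can share reads. Slc7a11, the subunit that erastin2 acts on, was slightly lower (-0.16), a call lost without Atg5F/F replicate 3 (-0.17, limma adjusted p = 0.051). The 5 targets called higher were Gclc, Nqo1, Cbr3, Abcc3 and Gclm. Gclc, the catalytic subunit of the first step of glutathione synthesis, had 431.3, 411.0 and 443.9 FPKM in Atg5KO, against 280.8, 260.0 and 273.5 FPKM in Atg5F/F (0.66, limma adjusted p = 2.7e-05). Nqo1, a quinone reductase, had 34.5, 29.2 and 30.5 FPKM in Atg5KO, against 25.1, 23.5 and 24.2 FPKM in Atg5F/F (0.36, limma adjusted p = 0.0022). Both genes had every Atg5KO library above every Atg5F/F library. Cbr3 (0.33) and Abcc3 (0.28) also rose. Gclm, the partner subunit of Gclc, stood at 0.13, and its call was lost without Atg5KO replicate 1 or 3 or any single Atg5F/F library (0.11 to 0.14, limma adjusted p 0.066 to 0.094).

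**Figure D4:**
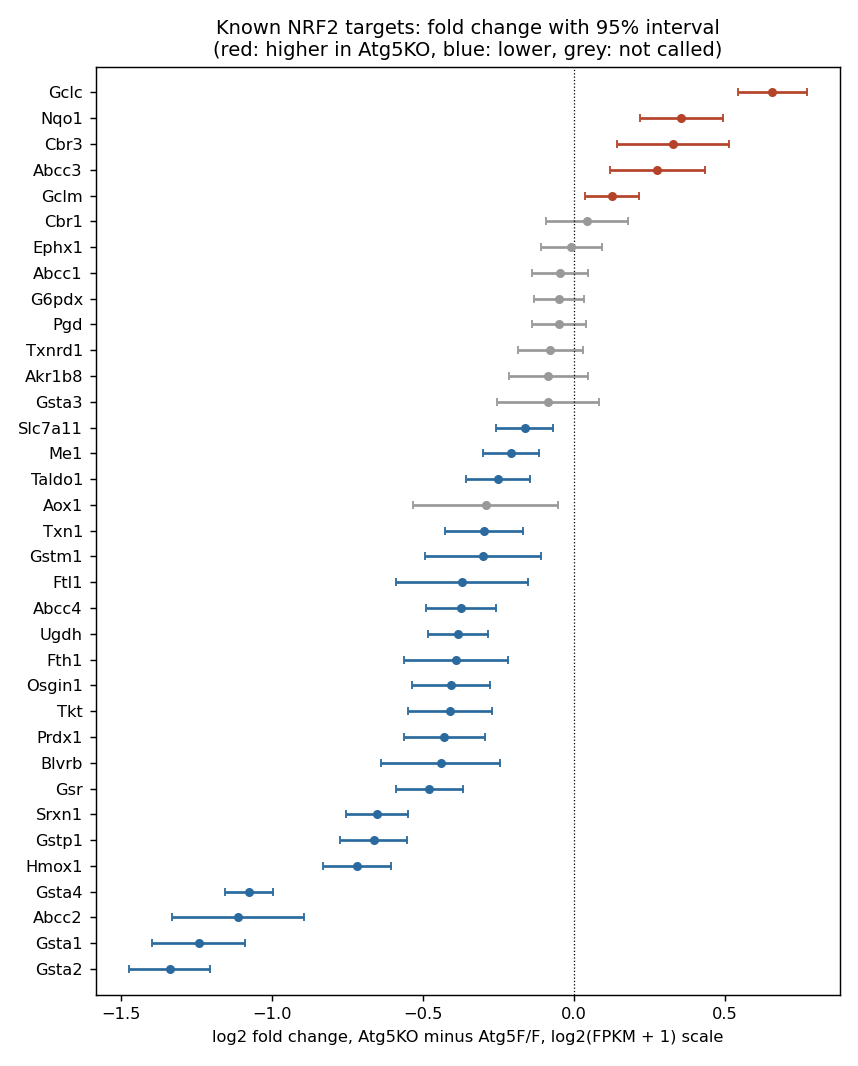
Log2 fold change of Atg5KO minus Atg5F/F on the log2(FPKM + 1) scale with its 95% interval for the 35 known NRF2 target genes (n = 3 libraries each), in order of value; red points were called higher, blue points lower and grey points not called. The list runs from Gsta2 at -1.34 to Gclc at 0.66, with 21 blue and 5 red points.

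Where a promoter window was available, the targets were also split by the letters of the antioxidant response element. A match to TGACNNNGC was found in 11 of 29 targets with a window (37.9%), against 14.0% of all genes. Of these 11 genes 6 fell, 1 rose and 4 did not pass (median log2 fold change -0.21). Of the 18 with a window and no match, 12 were lower, 2 higher and 4 not called (median -0.30). Of the 6 without a window 3 were lower, 2 higher and 1 not called (median -0.26). Over all genes tested 17.9% were lower and 21.3% higher. The stretches below, with 10 bases on each side, show 4 targets that fell (Abcc2, Srxn1, Prdx1 and Me1), 1 that was not called (Txnrd1) and 1 that was called higher (Gclm). They were chosen after their values were seen, apart from Abcc2. Capitals mark the core; where it reads on the opposite strand the capitals show its reverse complement. They lie on GRCm38.p6 at Abcc2 chr19:43782200-43782228 (plus strand), Srxn1 chr2:152105542-152105570 (plus strand), Prdx1 chr4:116685456-116685484 (plus strand), Me1 chr9:86695902-86695930 (minus strand), Txnrd1 chr10:82859104-82859132 (plus strand), Gclm chr3:122245413-122245441 (plus strand).
Abcc2: ctcactgggaTGACATAGCattcatctag
Srxn1: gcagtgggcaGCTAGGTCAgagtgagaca
Prdx1: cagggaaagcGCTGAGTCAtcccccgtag
Me1: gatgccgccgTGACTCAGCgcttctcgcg
Txnrd1: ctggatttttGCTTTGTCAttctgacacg
Gclm: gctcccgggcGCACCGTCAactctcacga
The matches of Prdx1 and Me1 also hold the letters TGACTCA or their reverse complement, the site of AP-1 factors, as 2 of the 13 matches did. The first capital lies at position -98 from the start site in Abcc2 and at -6 in Me1. The log2 fold changes were -1.11 for Abcc2, -0.65 for Srxn1, -0.43 for Prdx1, -0.21 for Me1, -0.08 for Txnrd1 (not called, and of either sign by setting) and 0.13 for Gclm.

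The ATG8 proteins on which the receptors dock showed 1 gene higher, 1 lower and 3 not called of 5 tested, or 40.0% called beside 39.2% of all genes tested. The median of -0.06 was -0.11 without Atg5KO replicate 1, -0.01 without Atg5KO replicate 3, -0.003 with the length trend removed and 0.03 under quantile normalization. Map1lc3b, the LC3 gene most used as a marker of autophagosomes, had 92.5, 95.3 and 89.3 FPKM in Atg5KO, against 77.2, 78.1 and 77.5 FPKM in Atg5F/F (0.25, limma adjusted p = 0.0010). Gabarapl1 was lower (-0.18, limma adjusted p = 0.014), a call lost without Atg5F/F replicate 3 (-0.18, limma adjusted p = 0.058) and under quantile normalization (-0.11, limma adjusted p = 0.053); without Atg5F/F replicate 2 the list held 2 genes called lower. Of 17 further receptors tested, for organelles and ferritin, 5 were higher and 2 lower, or 41.2% called beside 39.2% of all genes tested. The median of 0.004 had no stable sign, at -0.02 without Atg5KO replicate 1, 0.05 without Atg5KO replicate 3, -0.01 under median-ratio scaling and -0.04 with the length trend removed. Sec62 (0.26) and Bnip3l (0.25), receptors for the endoplasmic reticulum and for mitochondria, rose, and Fam134b (-0.24), another receptor of the endoplasmic reticulum, fell. Stbd1, the glycogen receptor, was higher (0.26), a call lost without Atg5F/F replicate 1 or 2 or Atg5KO replicate 1 or 2 (0.19 to 0.25, limma adjusted p 0.058 to 0.082). The list held 3 genes called higher without Atg5F/F replicate 2 or Atg5KO replicate 1, and 1 called lower without Atg5KO replicate 3 or any single Atg5F/F library.

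TBK1 phosphorylates optineurin and p62 and raises their affinity for cargo or LC3. Of 4 tested genes of TBK1, its relative and their adaptors, 25.0% were called, beside 39.2% of all genes tested: Ikbke rose (0.55, limma adjusted p = 2.5e-04), with a mean of 7.05 ± 0.34 FPKM in Atg5KO and 4.49 ± 0.29 FPKM in Atg5F/F (SD, n = 3 each), and the other 3 were not called. Of 10 genes for PB1-domain kinases and ubiquitin-chain partners of p62, 3 rose and none fell (median 0.13, or 0.08 with the length trend removed). The 30.0% called compares with 39.2% of all genes tested, of which 21.3% were higher. Tnfaip3, the ubiquitin-editing enzyme A20 that works with TAX1BP1, had 19.3, 18.5 and 16.8 FPKM in Atg5KO, against 9.85, 8.02 and 9.70 FPKM in Atg5F/F (0.92, limma adjusted p = 5.8e-05). Map3k3 (0.26) and Prkci (0.16), a kinase and the atypical protein kinase C that bind through PB1 domains, were also higher.

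Of 8 genes for partners of TOLLIP, 37.5% were called, all of them lower. Over all genes tested, 39.2% were called in either direction and 17.9% were lower. The median of -0.06 was -0.02 without Atg5KO replicate 1, -0.10 without Atg5KO replicate 3 and -0.03 with a filter of 5 FPKM. None was higher and 3 were lower: Tom1l1 (-0.17), Irak1 (-0.16) and Tom1l2 (-0.13), which encode endosomal adaptors and a kinase of interleukin-1 signalling. Without Atg5F/F replicate 3 neither Irak1 (-0.16, limma adjusted p = 0.0502) nor Tom1l2 (-0.13, limma adjusted p = 0.070) passed, and Tom1l2 did not pass without Atg5KO replicate 1 (-0.12, limma adjusted p = 0.062). Tollip itself was called in the other direction. Of 7 tested BEACH-domain relatives of WDFY3, 42.9% were called, beside 39.2% of all genes tested. Nsmaf rose (0.37, limma adjusted p = 2.0e-04), with a mean of 23.8 ± 0.89 FPKM in Atg5KO and 18.1 ± 0.03 FPKM in Atg5F/F (SD, n = 3 each). Nbeal1 was called higher (0.23) and Nbeal2 lower (-0.16). The call of Nbeal1 was lost without Atg5F/F replicate 2 or 3 or Atg5KO replicate 1 or 3 (0.19 to 0.22), and that of Nbeal2 without any library other than Atg5F/F replicate 1 (-0.17 to -0.14).

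Genes whose pattern over the 6 libraries lay closest to a member were sought among 8639 tested genes with a mean of at least 5 FPKM, by the root mean square difference of centred log2(FPKM + 1). The members, predicted genes with Gm names, Rik clones and pseudogenes were left out of that set. Closest to Sqstm1 were Ipo4 (0.016), Aldh1l2 (0.018), Trap1 (0.020), Renbp (0.025) and Vegfa (0.025). Ipo4 had 27.8, 28.4 and 28.6 FPKM in Atg5KO, against 35.8, 39.1 and 38.3 FPKM in Atg5F/F, so its lowest library in each group was also the first, unlike Sqstm1, whose lowest Atg5KO library was the second. Closest to Calcoco1 were Cgn (0.022), Klhl8 (0.022) and Wisp1 (0.027), and closest to Nfe2l2 were Zc3h14 (0.013), Taf6 (0.014) and Cabin1 (0.015). These distances are a description over 6 libraries of 2 kinds and say nothing of shared function or control.

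Of 10 proximal tubule markers, 5 were tested, and their summed FPKM over all 10 was 135.1 to 140.9 in Atg5KO and 156.1 to 157.3 in Atg5F/F. Lrp2 (-0.60), Pdzk1 (-0.72) and Hnf4a (-0.88) were lower in Atg5KO. Aqp1 was higher (0.35), a call lost without Atg5KO replicate 1 (0.31, limma adjusted p = 0.062). Cubn, Slc34a1, Slc5a2, Slc5a12 and Slc22a6 stayed under 1 FPKM in all libraries, so the labelled cell type was only partly matched by its defining markers. Of markers of other cells, all 7 fibroblast and all 6 loop, distal tubule and collecting duct genes lay under 1 FPKM in all libraries, as did 4 of 5 endothelial, 3 of 5 leukocyte and 2 of 4 podocyte genes. Adgre1, Cd3e, Calb1 and Aqp2 were at 0. Kdr had a mean of 5.53 FPKM in Atg5KO and 9.06 FPKM in Atg5F/F (-0.63), Podxl was higher in Atg5KO (0.58) and Wt1 lower (-0.42, a call lost on leaving out Atg5F/F library 1, Atg5F/F library 3 or Atg5KO library 2, at -0.42, -0.36 and -0.26). Cd68 (-0.21) and Csf1r (0.003, of either sign by setting) were not called, and Cd68 was called lower without Atg5F/F replicate 1 (-0.27), under median-ratio scaling (-0.23) and under quantile normalization (-0.24). Summed endothelial markers ran from 5.27 to 6.56 FPKM in Atg5KO and from 8.49 to 10.0 FPKM in Atg5F/F, leukocyte markers from 10.3 to 12.2 FPKM in Atg5KO and 10.9 to 13.1 FPKM in Atg5F/F, and podocyte markers from 4.98 to 5.71 FPKM in Atg5KO and 4.74 to 5.59 FPKM in Atg5F/F. The part of cell makeup in the member results was not tested.

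Longer genes tended to stand higher in Atg5KO. Spearman's rho across genes between length and a library's deviation from the mean was 0.11, 0.04 and 0.34 in Atg5KO, against -0.20, -0.16 and -0.23 in Atg5F/F. With that trend removed, Sqstm1, Optn and Calcoco1 kept their calls and Tollip did not (0.11, limma adjusted p = 0.11), and 22 NRF2 targets were lower and 5 higher.

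**Figure D5:**
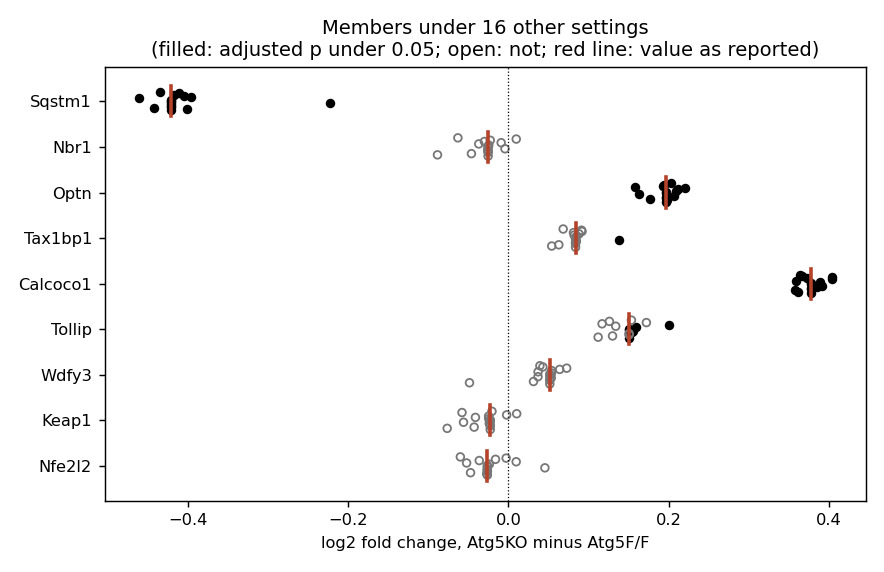
Log2 fold change of Atg5KO minus Atg5F/F for each member under the 16 other settings (1 point a setting; filled points passed adjusted p under 0.05, open points did not), with the value as reported as a red line. Sqstm1, Optn and Calcoco1 are filled throughout, Tollip is filled in 7 of 16, and the lone Sqstm1 point at -0.22 is quantile normalization.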

How the data were processed

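Libraries were made from total RNA with a stranded mRNA kit, per the labels' protocols. The submitters' processing notes name HISAT2 2.1.0 as a tool, beside Trimmomatic 0.35, featureCounts 1.4.6, bcl2fastq and edgeR, with GRCm38 and mm10 as builds. How strand and multi-mapping reads were treated, and with which annotation, is not given there. The authors deposited FPKM per gene and library. The deposited table also holds the authors' log2 fold change, p-value, FDR and a ranking score, with 0 columns of samples outside the series.

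Levels are the deposited FPKM. The test was limma (version 3.58.1, R 4.3.3) with moderated variances that follow a trend with level. It ran on log2(FPKM + 1) of genes that reached 1 FPKM in 3 or more of 6 libraries, Atg5KO minus Atg5F/F, with Benjamini-Hochberg adjustment over all 11559 genes tested and calls at adjusted p under 0.05. A fold change on this scale understates the change of low genes. FPKM steps gave back whole reads for 18296 of 18296 genes above 0 (100%, within 2.0e-04 reads, with a wider limit for the highest counts), and limma's voom on these reads was an alternative, calling 2802 genes higher and 2262 lower. The fit and the recovery of reads were also run on simulated data. These had the same dispersion for all genes and no trend with gene length, so they do not cover the length trend described above. Libraries of a group differed by more than sampling noise (chi-square per degree of freedom 3.28 to 6.75), so none was counted as a duplicate; intervals of counts were not used, since replicate spread exceeded counting error.

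The members and lists were chosen with earlier results of these data known, lists from general knowledge. Named were all members and, per list, up to 4 called genes with the largest absolute log2 fold change, or, in a list with no call, the 2 of smallest p; genes outside this rule are said to be so. Some results for single genes are not reported here. Alternatives were the replicate block, leaving out each library, no filter, a filter of 5 FPKM, a pseudocount of 0.1, median-ratio scaling, quantile normalization, no variance trend, robust eBayes, voom and removal of the trend with gene length (loess, span 0.5). Gene positions are from GENCODE vM21 and promoter windows from RefSeq, both GRCm38.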

Additional observations from a re-analysis of the deposited data

How the results depend on the processing

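The counts of genes called among all genes tested, the 9 members and the 35 NRF2 targets stayed within 1.5 times of the reported count under every setting run. On leaving out each library, the Sqstm1 share in Atg5KO minus that in Atg5F/F ran from -5.96 to -5.45 percentage points. With all libraries it was -5.68. The same difference for the Nfe2l2 to Keap1 ratio ran from -0.15 to 0.23, so of either sign, and was -0.005 with all libraries. Members gave 2 to 4 calls higher and 1 lower over the 16 settings. Same-numbered deviations correlated at 0.16, 0.075 and -0.023. Differently numbered libraries were not compared in this way, so these values cannot decide whether replicate numbers pair the libraries. With the replicate block, 2531 genes were higher and 2137 lower, members gave 3 higher and 1 lower and targets 5 and 22, while Nbeal2 lost its call (limma adjusted p = 0.052), as did the NRF2 ligase genes Btrc (limma adjusted p = 0.074) and Cul1 (limma adjusted p = 0.068), both chosen after their values were seen. The calls of Btrc and Cul1 were fragile beyond this block. Btrc lost its call without any single library (0.14 to 0.19, limma adjusted p 0.066 to 0.12). Cul1 lost its call without any library other than Atg5F/F replicate 1 (0.096 to 0.14, limma adjusted p 0.076 to 0.14).

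Among the genes named, those that changed sign under a setting had log2 fold changes near 0 and were not called, and the cause was not tested. Over the 6 fits that each leave out a library, Nbr1 ran from -0.063 to 0.0098, Keap1 from -0.058 to 0.010, Nfe2l2 from -0.060 to 0.0097, Cul3 from -0.00014 to 0.086, Rbx1 from -0.011 to 0.10, Csf1r from -0.059 to 0.059, Zc3h14 from -0.051 to 0.0016 and Taf6 from -0.055 to 0.011. Under quantile normalization Nfe2l2 was 0.046, Txnrd1 0.015 and Csf1r -0.023. Under median-ratio scaling Csf1r was -0.015, and with the length trend removed Wdfy3 was -0.049 and Csf1r -0.039. Tollip also lost its call under median-ratio scaling, without the filter and without the variance trend (limma adjusted p = 0.080, 0.079 and 0.074). Removal of the length trend ended the calls of Gsk3b (0.07), Btrc (0.09), Cul1 (0.10), Bach2 (0.18) and Nbeal1 (0.14).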
